A study of Homo sapiens with 6 samples.

Results

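BRD2, BRD3, CDK12, CDK13, CCNK, CDK7, CCNH, MNAT1 and SUPT6H encode chromatin readers, kinases, cyclins and an elongation factor that act on RNA polymerase II beside the kinase P-TEFb. These 9 genes were taken by their symbols and roles from the 16779 genes listed for each library, and all 9 passed the filter on low counts. They were read in 6 RNA-seq libraries labelled A549, a cell line from a human lung adenocarcinoma, with 3 libraries of wild-type genotype (control) and 3 carrying a knockout of RN7SK (RN7SK-KO), and no further treatment named for either group. RN7SK is the gene of 7SK, a small nuclear RNA that holds P-TEFb inactive. The question was how mRNA levels of these partners differ where that gene is labelled as lost. The labels do not say whether the 3 libraries of a group came from separate cultures or whether the knockout is 1 clone, so the p-values below measure only the spread between these libraries, which may be technical.

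BET proteins carry paired bromodomains that bind acetylated histones and link them to the transcription machinery. CDK7, with cyclin H and the assembly factor MAT1, forms the kinase module of the general factor TFIIH, which phosphorylates the polymerase tail early in transcription and also activates other cyclin-dependent kinases. CDK12 and CDK13 each pair with cyclin K and phosphorylate the tail during elongation, and SPT6, the product of SUPT6H, is a histone chaperone that travels with the polymerase.

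Total counts per library ran from 16018260 to 19357144. RN7SK itself had 0 rows, and its loss was therefore not checked. The libraries labelled control did not match their cell line at CDKN2A, which A549 is known to lack: it had 923 to 1005 counts there and 0 to 2 in the libraries labelled RN7SK-KO. Of the other genes that A549 is known to lack, CDKN2B had 216 to 241 against 0 to 1 counts and MTAP 835 to 897 against 201 to 240 counts, so that MTAP did not match the line in either group. Summed epithelial and A549 markers were 4660 to 4863 CPM (here read counts scaled to library size alone) in the control and 13424 to 13557 CPM in the RN7SK-KO libraries, where 7 of 8 tested markers rose and 1 fell. Endothelial markers summed to 162 to 173 against 4.22 to 4.99 CPM, where all 4 tested fell, while PECAM1 and VWF had at most 4 counts in any library. Haematopoietic markers summed to 34.3 to 37.7 against 55.7 to 59.3 CPM, with CD3E at 0 in all 6, and fibroblast markers to 26.6 to 27.8 against 38.8 to 40.9 CPM. CD68 made up most of the haematopoietic sums (32.0 to 35.3 against 47.2 to 49.6 CPM), and all 3 tested rose. Of 3 tested fibroblast markers 2 rose and 1 fell. FBN1, most of the control sum, had 21.5 to 23.1 against 16.6 to 16.9 CPM, and COL1A1 2.96 to 3.99 against 12.2 to 13.6 CPM. The part of these differences in the results below was not tested. These differences lie between the same groups as the RN7SK label, so a difference in cell identity and the knockout cannot be told apart. In such bulk samples fewer cells of a type and less RNA per cell cannot be told apart either. Each direction is that of the libraries labelled RN7SK-KO against those labelled control.

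Of the 9 genes, 4 rose in the libraries labelled RN7SK-KO (BRD3, CDK13, CCNK and SUPT6H), 3 fell (BRD2, CCNH and MNAT1) and 2 did not pass the test (CDK12 and CDK7). A gene was called where the two-sided edgeR quasi-likelihood test gave a Benjamini-Hochberg adjusted p under 0.05 over 12929 tested genes. By the same rule 85.0% of all tested genes were called, 42.0% higher and 43.0% lower, so the 77.8% of these 9 that were called is near the background, and passing the test does not set them apart. Their median absolute log2 fold change was 0.43, against 0.65 over all tested genes, and their median log2 fold change was 0.13 against -0.01. The values of 6 of the 9 did not overlap between the groups, against 85.6% of all tested genes, on CPM scaled by trimmed mean of M values as in all that follows. The 3 with overlap were CDK12, CDK7 and MNAT1. The 9 genes had 341 to 7327 counts in a library, for which counting error alone gives a coefficient of variation of at most 5.16% per library, averaged over a group.

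**Figure D1:**
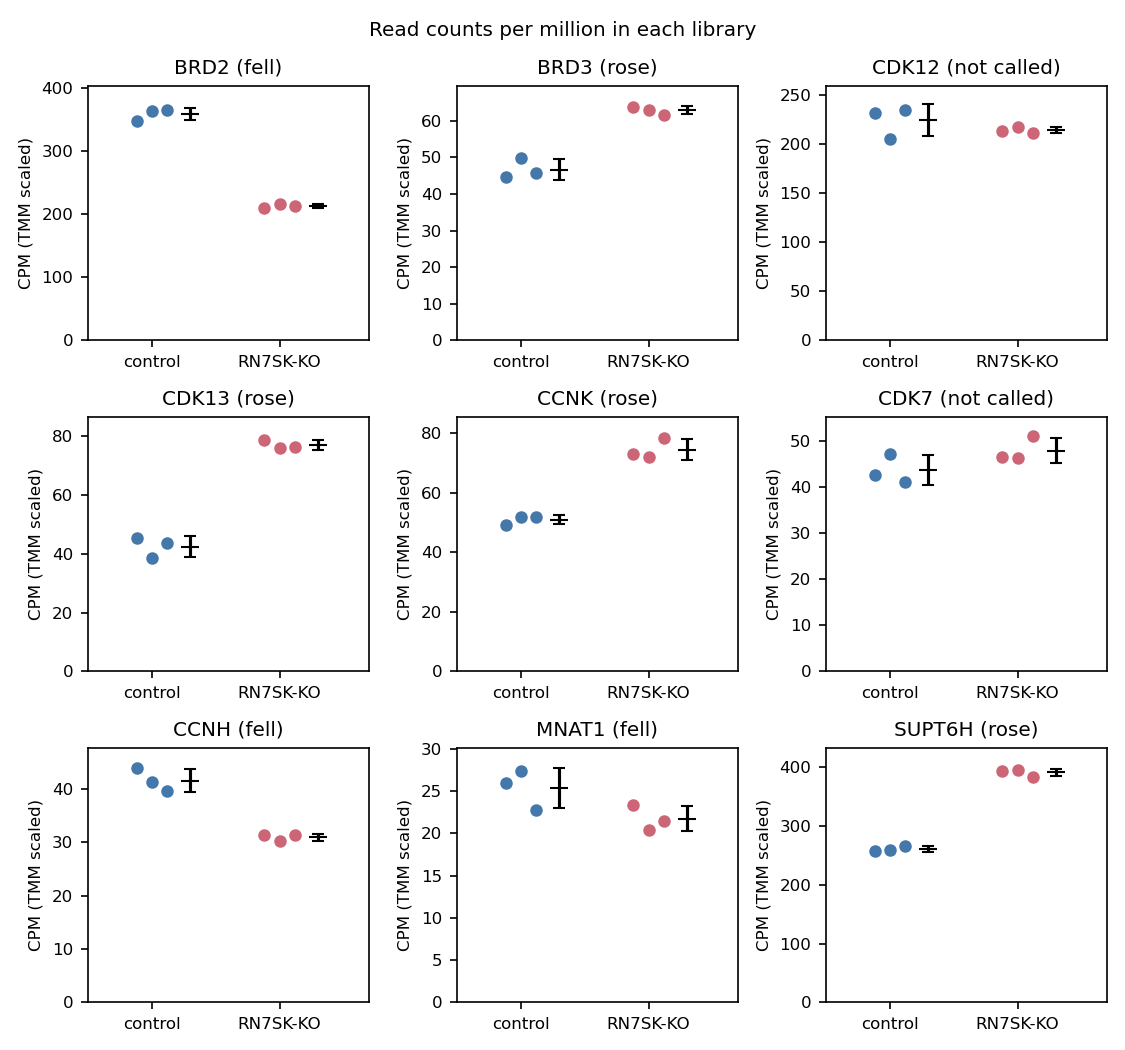
CPM in each library (vertical axis, from 0) for the 9 genes, with 3 control libraries in blue and 3 RN7SK-KO libraries in red. The black bars are mean ± SD (n = 3), and the control and RN7SK-KO points are apart for BRD2, BRD3, CDK13, CCNK, CCNH and SUPT6H.

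Reads of close paralogs can be split between them, so the shared stretches were searched. BRD2 and BRD3 transcripts share no stretch of 50 bases, and neither do CDK12 and CDK13 transcripts, in the GENCODE protein-coding set of GRCh38. The longest identical stretches between the longest coding transcripts, shown because they are the places where a short read could come closest to both genes, were 18 bases for BRD2 and BRD3 and 25 bases for CDK12 and CDK13; the capitals mark that all bases match.
BRD2 and BRD3: TGCCAAGATGCCAGATGA
CDK12 and CDK13: TGGATTTCAAGAAGGACAAAGGTGC
On the same strand other shared stretches were small: 4.55% of the 50-base windows of CDK7 are also in its pseudogene CDK7P1, 2.71% of those of MNAT1 and 0.41% of those of CDK13 are in other transcripts, and BRD2 has 0.0351%.

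The 3 sequences below are the 250 bases before a RefSeq start site (GRCh38.p14, 5′ to 3′ on the strand of the gene, all plus). They come from a gene that fell, a gene that rose and a gene that did not pass the test. BRD2 has 4 listed start sites, of which 1 is shown. In GENCODE the gene CCNK starts at 99481169, so most of its window lies within that gene. The BRD2 window lies within the GENCODE span of HLA-DMA on the opposite strand. The sequences are shown to set the promoters of differently moving genes side by side. The capitals mark matches, on either strand, to the GC box (GGGCGG), the CCAAT box (CCAAT), the E-box (CACGTG), the TATA box (TATAAA) and the CRE core (TGACG).
BRD2 (fell, chr6:32968344-32968593): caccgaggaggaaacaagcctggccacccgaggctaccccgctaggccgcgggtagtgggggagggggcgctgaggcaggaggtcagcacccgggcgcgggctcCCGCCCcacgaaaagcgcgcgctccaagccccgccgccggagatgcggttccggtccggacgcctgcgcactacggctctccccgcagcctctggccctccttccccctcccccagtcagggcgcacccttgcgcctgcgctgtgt
CCNK (rose, chr14:99481159-99481408): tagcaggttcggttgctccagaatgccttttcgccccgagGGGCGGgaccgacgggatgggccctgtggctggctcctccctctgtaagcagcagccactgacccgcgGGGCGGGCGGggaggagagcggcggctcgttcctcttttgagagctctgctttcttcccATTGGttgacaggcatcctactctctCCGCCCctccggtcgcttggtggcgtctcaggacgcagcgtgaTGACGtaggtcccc
CDK12 (not called, chr17:39461236-39461485): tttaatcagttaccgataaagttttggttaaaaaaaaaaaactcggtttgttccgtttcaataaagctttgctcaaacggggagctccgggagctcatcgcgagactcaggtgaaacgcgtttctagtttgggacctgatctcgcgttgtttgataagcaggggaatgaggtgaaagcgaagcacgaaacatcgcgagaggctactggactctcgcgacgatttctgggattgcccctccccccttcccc
The BRD2 window holds 1 GC box at a GC content of 74%, the CCNK window 4 GC boxes, 1 CCAAT box and 1 CRE core at 65.2%, and the CDK12 window none of these motifs at 48.8%. The GC boxes may overlap each other. Over 27167 promoter windows of the same length the median GC content was 57.6%, the GC box was in 42.2%, CCAAT in 33.1% and the CRE core in 21.6%. The CRE core is only a part of the full CRE (TGACGTCA). The full CRE was in 1.75% of the promoter windows and in none of the windows of the 9 genes. The windows of CDK13 and SUPT6H, which also rose, hold 1 GC box and 1 CRE core each, and that of BRD3, which rose, 6 GC boxes and no CRE core. MNAT1 has none of the motifs, CCNH, which fell, has 2 GC boxes and 1 CRE core, and CDK7, which did not pass the test, has 1 GC box, 2 CRE cores and 1 E-box.

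BRD2 fell and BRD3 rose. BRD2 (chromosome 6, 32968594 to 32981505), a reader of acetylated H4 tails, had 348.7, 364.2 and 366.3 CPM in control replicates 1 to 3 and 210.9, 217.1 and 213.9 CPM in RN7SK-KO replicates 1 to 3. All 3 RN7SK-KO libraries lay below all 3 control libraries. BRD2 thus fell 1.68-fold, from 359.7 ± 9.63 to 213.9 ± 3.11 CPM (mean ± SD, n = 3), a log2 fold change of -0.75 ± 0.042 (fit ± SE; edgeR adjusted p = 1.3e-17). Of all tested genes, 44.5% changed by as much or more. On the opposite strand, 8.46% of the 50-base windows of BRD2 transcripts lie against the antisense transcript AL645941.3 and 0.105% against HLA-DMA, which overlaps BRD2 over 435 bases and rose from 0.937 ± 0.361 to 3.85 ± 0.583 CPM.

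BRD3 (chromosome 9, 134030305 to 134068548), its close paralog, had 44.5, 49.8 and 45.6 CPM in the control and 63.8, 63.0 and 61.7 CPM in the RN7SK-KO libraries. The groups did not overlap, and the RN7SK-KO libraries were the higher ones. BRD3 rose 1.35-fold, from 46.6 ± 2.78 to 62.9 ± 1.08 CPM, with a log2 fold change of 0.43 ± 0.059 (edgeR adjusted p = 4.29e-08). The end of BRD3 overlaps BRD3OS, a gene on the opposite strand, over 4362 bases, and 18.2% of the 50-base windows of BRD3 transcripts lie opposite a BRD3OS transcript. By counts BRD3OS rose from 16.3 ± 1.65 to 25.0 ± 2.70 CPM, but it fell in the 3 settings that use gene lengths. No source used here says whether reads were counted by strand, so reads of the pair cannot be told apart.

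BRDT, the BET gene of the male germ line, looked at after the values of BRD2 and BRD3 were known, was at 0 counts in all 6 libraries.

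Per unit of length, as FPKM (fragments scaled to both gene length and library size), BRD2 stood far above BRD3 in both groups, with lower ratios in the RN7SK-KO libraries. The ratio of BRD2 to BRD3 FPKM was 9.16, 8.55 and 9.38 in the control and 3.82, 3.98 and 4.01 in the RN7SK-KO libraries, without overlap. Its log2 difference was -1.20, and -1.18 on counts. With 3 libraries a group the two-sided exact permutation test cannot go below p = 0.1, which is what each of the 5 ratios given here reached (0.1 after adjustment over the 5).

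Of the elongation kinases, CDK13 rose and CDK12 did not pass the test. CDK12 (chromosome 17, 39461486 to 39567559) had 231.5, 204.9 and 234.6 CPM in the control and 213.1, 217.1 and 211.2 CPM in the RN7SK-KO libraries. Control replicate 2 was the lowest of the 6, and the groups overlapped. The difference from 223.6 ± 16.3 to 213.8 ± 3.02 CPM, a log2 fold change of -0.07 (95% interval -0.16 to 0.03), had an edgeR adjusted p of 0.198. Without control replicate 2 it was -0.13 and passed (edgeR adjusted p = 0.000845; 0.000845 to 1 over 19 alternatives).

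CDK13 (chromosome 7, 39950256 to 40099580) had 45.2, 38.5 and 43.5 CPM in the control and 78.8, 75.9 and 76.1 CPM in the RN7SK-KO libraries. Every RN7SK-KO library was well above every control library. CDK13 rose 1.81-fold, from 42.4 ± 3.47 to 76.9 ± 1.60 CPM, the largest log2 fold change of the 9 on counts at 0.86 ± 0.060 (edgeR adjusted p = 5.64e-15), and 39.3% of tested genes changed by as much or more. Its FPKM went from 4.71 ± 0.394 to 8.70 ± 0.172. Its recovered gene length, the length behind the deposited FPKM, was 8776 bases in both groups.

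CCNK (chromosome 14, 99481409 to 99512440), the gene of cyclin K, had 49.0, 51.8 and 51.9 CPM in the control and 73.0, 71.8 and 78.3 CPM in the RN7SK-KO libraries. The groups did not overlap. CCNK rose 1.46-fold, from 50.9 ± 1.62 to 74.4 ± 3.47 CPM, with a log2 fold change of 0.55 ± 0.057 (edgeR adjusted p = 1.11e-10). In GENCODE it overlaps CCDC85C on the opposite strand over 34865 bases, and 60.0% of the 50-base windows of CCNK transcripts lie opposite a CCDC85C transcript. CCDC85C rose from 20.9 ± 2.17 to 51.8 ± 2.49 CPM by counts (log2 fold change 1.31), with a recovered length that went from 8853 bases (control) to 19573 bases (RN7SK-KO), and it was not called in the 3 settings that use lengths. Without knowing the strand setting, the reads of CCNK and CCDC85C cannot be told apart.

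Relative to CDK13, CDK12 was lower in every RN7SK-KO library than in any control library. The ratio of CDK12 to CDK13 FPKM was 3.45, 3.58 and 3.63 in the control and 1.96, 2.08 and 2.01 in the RN7SK-KO libraries, with no overlap (log2 difference -0.82, and -0.92 on counts). CDK12 remained the more abundant per length in all 6 libraries. The ratio of cyclin K to the sum of both kinases was 0.686, 0.826 and 0.724 in the control and 0.946, 0.930 and 1.03 in the RN7SK-KO libraries, again apart (log2 difference 0.38).

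In the CDK-activating kinase, cyclin H and MAT1 mRNA fell while CDK7 mRNA did not pass the test. CDK7 (chromosome 5, 69234795 to 69277430) had 42.7, 47.4 and 41.3 CPM in the control and 46.5, 46.4 and 51.2 CPM in the RN7SK-KO libraries. The ranges overlapped, with control replicate 2 above 2 of the RN7SK-KO libraries. From 43.8 ± 3.19 to 48.0 ± 2.73 CPM the log2 fold change was 0.13 (95% interval 0.001 to 0.26), with an edgeR p of 0.0483 and an adjusted p of 0.0565. It passed in 7 of 19 alternatives, among them the one without control replicate 2 (log2 fold change 0.19, edgeR adjusted p = 0.00414, and 0.00311 to 0.975 over the 19). Its sign turned in the one with lengths as an offset (-0.01). That setting was fitted without scaling to library size, so the difference in total counts between the groups stays in its values. The recovered length of CDK7 was 1604 bases in control and 1602 bases in RN7SK-KO libraries. The offset moved the median of all tested genes with lengths by -0.12.

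CCNH (chromosome 5, 87311471 to 87412930), the gene of cyclin H, had 43.9, 41.3 and 39.5 CPM in the control and 31.4, 30.2 and 31.3 CPM in the RN7SK-KO libraries. The RN7SK-KO libraries were all lower. CCNH fell 1.34-fold on counts, from 41.6 ± 2.18 to 30.9 ± 0.667 CPM, with a log2 fold change of -0.42 ± 0.065 (edgeR adjusted p = 3.97e-07). On FPKM it fell 2.16-fold, from 9.86 ± 0.549 to 4.56 ± 0.115, because its recovered length was 4106 bases for control and 6729 bases for RN7SK-KO libraries. With the lengths as an offset, again without scaling to library size, its log2 fold change was -1.27. CCNH lies opposite RASA1, a Ras GTPase-activating protein gene, over 73516 bases in GENCODE, and RASA1 fell from 63.4 ± 2.11 to 43.5 ± 1.97 CPM. The coding transcripts of CCNH share no 50-base window with those of RASA1 on the opposite strand, but 17.5% of their windows lie opposite the antisense transcript AC018754.1.

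MNAT1 (chromosome 14, 60734761 to 60969965), the gene of MAT1, had 25.9, 27.4 and 22.7 CPM in the control and 23.4, 20.4 and 21.5 CPM in the RN7SK-KO libraries. Control replicate 3 lay below RN7SK-KO replicate 1, so the groups overlapped. MNAT1 fell 1.16-fold, from 25.4 ± 2.40 to 21.8 ± 1.52 CPM, with a log2 fold change of -0.22 ± 0.081 (edgeR adjusted p = 0.0139). The call was lost without control replicate 2 (log2 fold change -0.16, edgeR adjusted p = 0.0589) or without RN7SK-KO replicate 2 (-0.17, edgeR adjusted p = 0.0797), within a range of 0.00104 to 0.535 over the 19 alternatives.

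Relative to CDK7, both CCNH and MNAT1 were lower in every RN7SK-KO library. The ratio of CCNH to CDK7 FPKM was 0.402, 0.341 and 0.374 in the control and 0.160, 0.155 and 0.146 in the RN7SK-KO libraries. On counts the same ratio was 1.03, 0.872 and 0.957 against 0.674, 0.651 and 0.612, so the groups stayed apart but the log2 difference was -0.56 in place of -1.27. The ratio of MNAT1 to CDK7 FPKM was 0.278, 0.265 and 0.252 against 0.230, 0.201 and 0.192, a log2 difference of -0.35 on both scales.

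**Figure D2:**
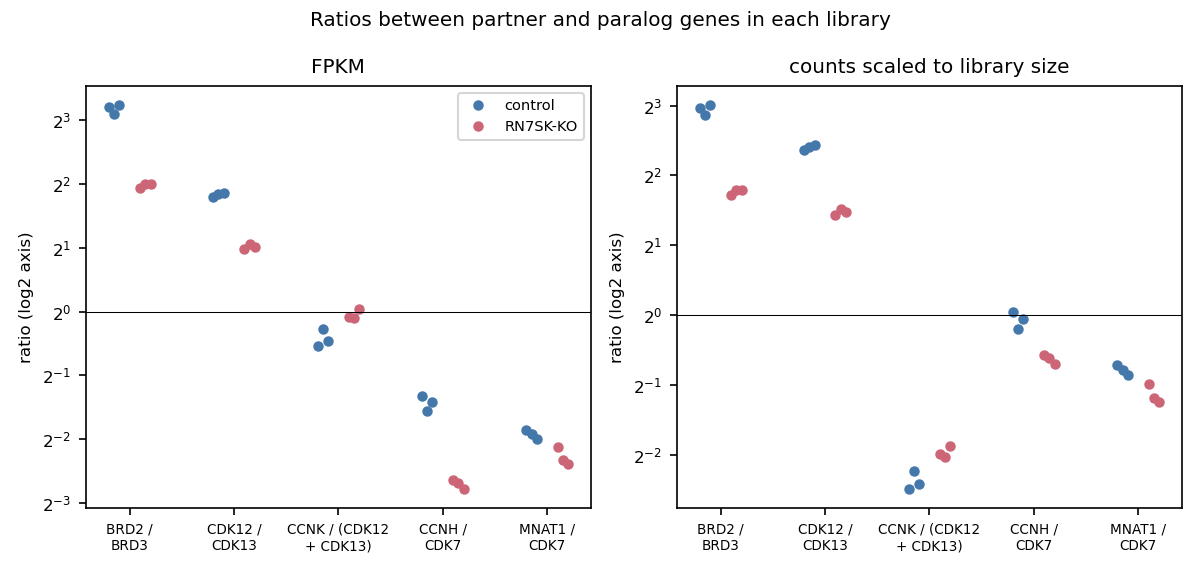
Ratio between partner and paralog genes in each library on log2 axes, from FPKM (left) and from counts scaled to library size (right), with 3 control libraries in blue and 3 RN7SK-KO libraries in red. On FPKM the ratio of BRD2 to BRD3 went from 8.55 to 9.38 down to 3.82 to 4.01, and the groups did not overlap for any of the 5 ratios on either scale.

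SUPT6H (chromosome 17, 28662205 to 28702679) had 257.0, 258.3 and 266.0 CPM in the control and 394.0, 394.8 and 383.7 CPM in the RN7SK-KO libraries. The groups lay far apart compared with the spread within each. SUPT6H rose 1.5-fold, from 260.4 ± 4.88 to 390.8 ± 6.20 CPM, with a log2 fold change of 0.59 ± 0.041 (edgeR adjusted p = 5.96e-15). It overlaps SDF2 on the opposite strand by 99 bases. SDF2, a gene of the endoplasmic reticulum, also rose, from 38.7 ± 2.02 to 53.5 ± 1.35 CPM.

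BRD2, BRD3, CDK13, CCNK, CCNH and SUPT6H kept their direction and call in all 19 alternatives. The log2 fold change ran from -0.89 to -0.66 for BRD2, from 0.30 to 0.52 for BRD3, from 0.72 to 0.95 for CDK13, from 0.51 to 0.67 for CCNK, from -1.27 to -0.34 for CCNH and from 0.55 to 0.71 for SUPT6H. CCNH had the widest range of these, and its far end came from the settings that use gene lengths.

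**Figure D3:**
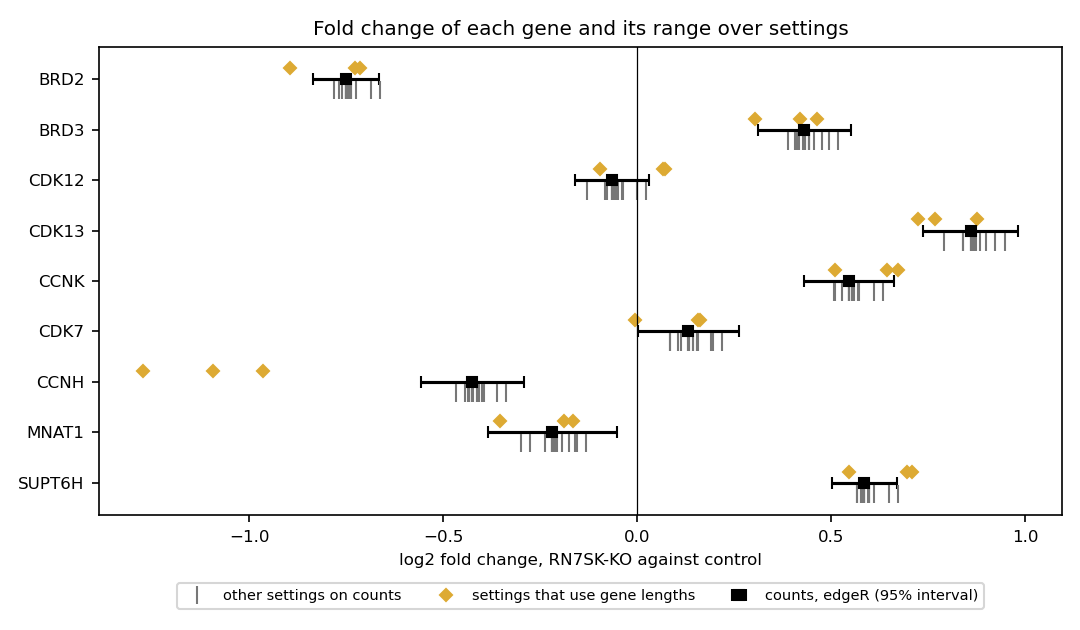
Log2 fold change of each gene, RN7SK-KO against control (horizontal axis): squares with bars give the edgeR value and its 95% interval, grey ticks the other settings on counts, and diamonds the 3 settings that use gene lengths. CCNH stands out by the gap between counts (-0.42) and lengths (down to -1.27), and CDK12 and CDK7 lie near 0. The far CCNH diamond is the length offset, which was not scaled to library size.

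Ordered by FPKM, which allows levels of different genes to be set side by side, BRD2 led in the control libraries with 64.3 ± 1.51, followed by SUPT6H with 35.8 ± 0.587 and CDK7 with 26.6 ± 1.93. CDK12 (16.7 ± 1.23) and CCNK (15.9 ± 0.454) came next with overlapping ranges, then CCNH (9.86 ± 0.549). BRD3 (7.13 ± 0.414) and MNAT1 (7.04 ± 0.674) overlapped too, and CDK13 was lowest. In the RN7SK-KO libraries SUPT6H led with 58.6 ± 0.597 FPKM, ahead of BRD2 with 38.8 ± 0.577, CDK7 with 29.7 ± 1.87, CCNK with 25.4 ± 1.33 and CDK12 with 17.5 ± 0.173. BRD3 (9.86 ± 0.123), CDK13 (8.70 ± 0.172), MNAT1 (6.16 ± 0.430) and CCNH (4.56 ± 0.115) followed, and no neighbours in this order overlapped. SUPT6H and BRD2 thus changed places at the top, and CCNH moved below BRD3, CDK13 and MNAT1 to the bottom. The last place of CCNH rests on its recovered length: at the control length its RN7SK-KO level would be 7.48 FPKM, below BRD3 and CDK13 but above MNAT1.

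Genes within 1 Mb of each of the 9 were read beside it on the scale of counts. The 8 tested neighbours of CCNK had a median log2 fold change of 1.10, with 7 that rose and 1 that fell. The 36 neighbours of SUPT6H had a median of 0.43, with 29 that rose and 4 that fell, and the 18 of BRD3 had 0.44, with 13 and 5. For these 3 genes the median of the neighbours had the sign of the gene itself, and the part of this in the gene's change was not tested. BRD2 fell among 41 neighbours with a median of -0.29, of which 22 fell and 11 rose, and CCNH among 3 that all fell (-0.42). The sign of CDK13, CDK12 and CDK7 was opposite to that of the median around them, though CDK12 and CDK7 did not pass the test. The 3 neighbours of CDK13 had a median of -0.40 with 2 that fell and 0 that rose (-0.12 for the 7 within 2 Mb), and the 35 of CDK12 had 0.29 with 21 that rose and 4 that fell. The 13 neighbours of CDK7 had -0.45 and the 9 of MNAT1 -0.15.

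Profiles over the 6 libraries were compared by the Euclidean distance between centred log2 CPM values. BRD2 was most like TELO2, VPS4A and WDR77 (distance 0.0405 to 0.0524 log2 units). SUPT6H was most like FSCN1, AP2M1 and SARS2 (0.0281 to 0.0495), CDK12 like CBFA2T2, LONP2 and VPS11 (0.0296 to 0.0471), and CDK7 like MIDN, GTF2B and MDM2 (0.0568 to 0.0759). The 3 genes like BRD2 had log2 fold changes of -0.78 to -0.77, and the 3 like SUPT6H of 0.58 to 0.60. That these are near the values of BRD2 and SUPT6H follows from the choice, since the distance includes the difference between the groups.

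Genes whose products work with the BET proteins moved in both directions. Of 36 tested genes of other bromodomain proteins, 12 rose, 19 fell and 5 did not pass (BAZ1B, ASH1L, BRD1, BRPF1 and CREBBP), with a median log2 fold change of -0.19. BRD9, a subunit of a SWI/SNF complex, fell from 143.2 ± 7.98 to 38.2 ± 0.993 CPM. The SWI/SNF ATPase genes went apart: SMARCA4 fell from 45.4 ± 4.16 to 14.0 ± 0.739 CPM, and SMARCA2 rose from 23.0 ± 1.55 to 87.6 ± 0.867 CPM (edgeR adjusted p = 7.94e-20 and 1.67e-24). Of 5 partners of the BET extraterminal domain, 3 rose and 2 fell, with a median of 0.25. The histone methyltransferase gene NSD3 rose from 44.6 ± 1.46 to 102.1 ± 0.643 CPM (the log2 fold change was smaller, 0.25 to 0.41, in the settings that use lengths, which were 7053 bases in control and 12390 in RN7SK-KO libraries), the remodeller gene CHD4 rose by 0.35 on the log2 scale and BICRA by 0.25, whereas ATAD5 fell by 0.63 and JMJD6 by 0.48. BICRA lost its call without RN7SK-KO replicate 3 (0.18) and with a fold of 1.2 as the threshold. It also lost it with lengths as an offset (0.11), a setting not scaled to library size. Its recovered length was 7223 bases in both groups. BICRA and JMJD6 are named because they complete the list.

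Of 5 transcripts used as markers of the response to BET inhibitors, 3 rose, 1 fell and 1 did not pass. HEXIM1, the P-TEFb inhibitor gene that BET inhibitors are known to raise, had 110.4 ± 4.51 against 191.0 ± 6.95 CPM, and ZCCHC24 rose from 2.55 ± 0.399 to 11.2 ± 0.873 CPM. MYC, which BET inhibitors are known to lower in many lines, rose by 0.44. ZMYND8 fell by 0.20 on counts but rose in the 3 settings that use lengths (0.41 to 0.57), and its call was lost without RN7SK-KO replicate 1. SERPINI1 did not pass. These last 2 are named as the remaining genes of the list.

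Among 13 other transcription kinases and their cyclins, 2 rose, 7 fell and 4 did not pass (CCNQ, CCNL1, CDK8 and CDK19), with a median log2 fold change of -0.27. The Mediator cyclin gene CCNC fell from 67.3 ± 2.24 to 31.1 ± 1.37 CPM, CDK10 from 62.5 ± 4.41 to 29.8 ± 0.584 CPM and CCNL2, a cyclin gene tied to splicing, from 172.0 ± 8.81 to 99.0 ± 2.81 CPM (edgeR adjusted p from 6.88e-18 to 1.3e-16). CDK20 and the P-TEFb kinase gene CDK9, named as the 2 that rose, had log2 fold changes of 1.71 and 0.46.

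All 7 core subunits of TFIIH, the complex that holds the CDK7 module, were called: 6 fell and 1 rose, with a median of -0.39. The helicase gene ERCC2, whose product anchors the module to the core, fell from 78.2 ± 2.34 to 20.3 ± 1.31 CPM. GTF2H5 fell from 39.8 ± 0.883 to 16.6 ± 0.588 CPM and GTF2H2 from 17.4 ± 2.41 to 6.28 ± 0.0867 CPM. GTF2H1, named as the exception, rose by 0.55. Of 6 phosphatases of the polymerase tail, which oppose these kinases, 2 rose and 4 fell: CTDSPL fell by 1.23 (-0.48 and -0.41 on FPKM), CTDP1 by 0.93, SSU72 by 0.32 and CTDSP1 by 0.15, while CTDSP2 rose by 0.23. RPAP2 rose by 0.48 on counts, but with recovered lengths of 7607 and 21403 bases it fell in the 3 settings that use lengths (-1.15 to -0.62).

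DNA repair genes are the class whose mRNAs are known to depend on CDK12. Of 10 such genes, 2 rose, 6 fell and 2 did not pass (ATR and BRCA2), with a median log2 fold change of -0.72. FANCD2 fell from 98.2 ± 0.981 to 36.0 ± 0.247 CPM, the DNA damage kinase gene ATM from 148.7 ± 7.92 to 58.5 ± 0.804 CPM and the checkpoint kinase gene CHEK1 from 82.2 ± 5.12 to 30.1 ± 1.06 CPM (edgeR adjusted p = 2.54e-22, 3.53e-22 and 6.48e-21). BRCA1 and RAD51C, named because they went the other way, rose by 0.52 and 0.77. CDK12 itself did not pass the test in these libraries.

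Of 12 SPT6 partners and histone chaperones, 4 rose, 6 fell and 2 did not pass (HIRA and NAP1L1), with a median of -0.07. NAP1L1 had recovered lengths of 6681 bases in control and 14424 bases in RN7SK-KO libraries, and its FPKM went from 93.3 ± 6.08 to 44.5 ± 1.56. SUPT5H, the gene of the elongation factor SPT5, rose from 173.8 ± 6.41 to 279.7 ± 3.95 CPM, in the same direction as SUPT6H. IWS1, whose product binds SPT6, fell by 0.83 on the log2 scale, and the chromatin assembly gene CHAF1A fell from 88.3 ± 1.87 to 53.0 ± 2.17 CPM. The other genes of this list that rose were ASF1A (0.55), ASF1B (0.57) and NAP1L4 (0.39, but below 0 in the settings that use lengths). The share of called genes was high in each of these lists, as it was over all tested genes.

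**Figure D4:**
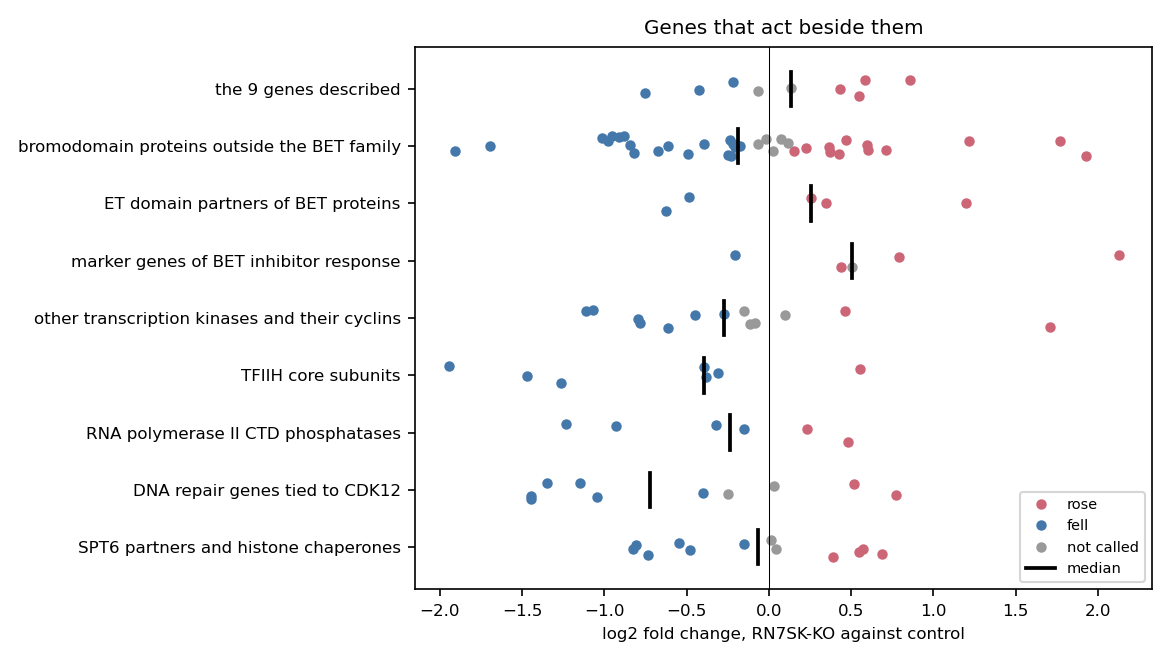
Log2 fold change, RN7SK-KO against control, of the 9 genes described (top row) and of the tested genes of 8 lists of partners, with genes that rose in red, genes that fell in blue, genes not called in grey and the median of each row as a black bar. The row medians lie between -0.72 (DNA repair genes) and 0.51 (marker genes of BET inhibitor response), and each row holds genes on both sides of 0.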

How the data were processed

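Total RNA of 6 libraries was extracted with TRIzol and made into sequencing libraries with a kit for mRNA, per the labels. HISAT2 2.2.1.0, Trimmomatic 0.36, FastQC 0.11.5 and GRCh38 are named per the submitters' processing notes. The counter, annotation and strand setting were not given in the sources used here. For each library the authors deposited whole-number read counts per gene and FPKM, which also take gene length into account. The gene lengths behind the deposited FPKM were recovered from the counts. They were whole numbers within 0.02 bases for at least 99.99% of genes per library and often differed between the groups: of 14582 genes with both, 32.4% agreed within 1%. Such gene models could also have set which reads were assigned to a gene.

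Counts were tested in R 4.3.3 with edgeR 4.0.16 (filterByExpr, trimmed mean of M values, robust glmQLFit and glmQLFTest), two-sided, Benjamini-Hochberg adjusted over 12929 genes at 0.05. The common biological coefficient of variation was 0.0443, and within groups it was 0.0559 for control and 0.0250 for RN7SK-KO libraries. The steps were tested on simulated data in which few genes changed. That test cannot check the scaling in data where 85.0% of tested genes were called. Alternatives were other scalings and filters, DESeq2 1.42.0, limma 3.58.1 (voom, and trend on log2 FPKM), a length offset, a replicate block, stricter thresholds and leaving out each library. The length offset held gene lengths alone and was not scaled to library size, so its values also hold the difference in total counts. Replicate numbers did not pair the libraries: correlations of same-numbered deviations were 0.018, -0.025 and -0.008. No libraries agreed within sampling noise. Control replicate 2 stood apart from its group. Chi-square per degree of freedom was 6.48 against control 1 and 8.30 against control 3. It was 2.96 between control 1 and 3, and 1.74 to 2.03 between RN7SK-KO libraries.

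Named genes were the 9, the 3 genes of each list with the smallest p, the 3 genes most alike in profile for BRD2, CDK12, CDK7 and SUPT6H, and others where the text says so; genes on the opposite strand were named for their position. The 9 genes and the lists were chosen with earlier results of these data known. Symbols were matched to RefSeq (16491 by symbol, 226 by synonym), which gives the coordinates of the 9 genes on GRCh38 and the promoter windows; transcripts and overlaps are from GENCODE. Promoter windows that other transcripts use as untranslated exons are not printed. Figures were made in Python 3.11.15.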

Additional observations from a re-analysis of the deposited data

How the results depend on the processing

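Of 171 alternatives for the 9 genes, 153 gave the same direction and call. CDK12 turned positive with upper quartile scaling (0.0225), log2(FPKM + 0.1) (0.0712) and log2(FPKM + 1) (0.0675), and ran from -0.128 to -0.0352 with 1 library left out. CDK7 passed the test with DESeq2 size factors (0.14), upper quartile scaling (0.22), library size alone (0.16), a minimum of 5 CPM (0.20), log2(FPKM + 0.1) (0.16) and log2(FPKM + 1) (0.16), turned to -0.00518 with the length offset, and ran from 0.0840 to 0.189 with 1 library left out. MNAT1 lost its call with upper quartile scaling (-0.13), a minimum of 5 CPM (-0.16), an adjusted p under 0.01 (-0.22) and a fold of 1.2 (-0.22), and ran from -0.30 to -0.16 with 1 library left out. The length offset moved the median of all genes by -0.12. It also moved genes whose recovered length was equal in both groups, such as CDK13 (0.86 to 0.72) and MNAT1 (-0.22 to -0.35). The length offset held lengths only and was fitted without scaling to library size. Total counts were 18612303 to 19357144 in control and 16018260 to 18488790 in RN7SK-KO libraries. That difference therefore stays in all values of the length offset, which are not a measure of length alone. With the replicate number as a block, a paired fit, CDK13 was 0.86, BRD2 -0.75 and CDK7 0.13, and no call of the 9 genes changed. On counts the log2 difference was -0.92 for CDK12 to CDK13 and -0.56 for CCNH to CDK7. The neighbours of MNAT1 had a median of 0.0685 within 2 Mb.

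Of the BET inhibitor markers 5 rose in the 3 settings with lengths; 0 fell there, with upper quartile scaling, a minimum of 5 CPM and a fold of 1.2, and 0 to 1 with 1 library left out. With FPKM, 2 TFIIH genes rose. Of the phosphatases 1 rose with FPKM or a fold of 1.2 and 0 with the length offset, and 2 fell with a fold of 1.2. On log2(FPKM + 0.1), log2(FPKM + 1) and the length offset, in this order, the sign turned for RPAP2 (-0.93, -0.62 and -1.15), BRD3OS (-0.66, -0.57 and -0.83), ZMYND8 (0.57, 0.48 and 0.41) and NAP1L4 (-0.0433, -0.0424 and -0.208), and for CTDSP1 in the FPKM settings (0.00875 and 0.00831). CTDSP2 lost its call with the length offset and a fold of 1.2, SSU72 with a fold of 1.2, and ZMYND8 and CTDSP1 with upper quartile scaling, a minimum of 5 CPM and a fold of 1.2. The cause was not tested. Counts of at least 341 per library and gene kept counting error small for the 9 genes, and the 3 libraries in a group limit precision.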
